A study of Homo sapiens with 7 samples.

Results

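Protocadherins, the largest family of cadherin-type cell adhesion proteins, were followed in BHT-101, a cell line from a human anaplastic thyroid carcinoma, with and without intact ASH1L. ASH1L is a Trithorax-group enzyme that methylates histone H3. The members were all rows of the deposited expression table whose symbol starts with PCDH. They numbered 12 of 13142 rows. Of these, 5 belong to the gamma cluster (PCDHGA10, PCDHGB1, PCDHGB4, PCDHGB5 and PCDHGC3), 3 to the beta cluster (PCDHB2, PCDHB5 and PCDHB6) and 4 lie outside the clusters (PCDH1, PCDH7, PCDH9 and PCDH10), and 0 to the alpha cluster. The samples were 4 knockout (KO) clones with 1 RNA-seq library each and 3 biological replicates of wild-type (WT) cells. KO1 carries a stop after residue 413 of ASH1L, KO2 after residue 610 and KO3 after residue 2129, each on both alleles. KO4 carries stops after residues 2169 and 2174. All libraries came from cells in DMEM with serum, and no treatment is given in the labels. Each KO library is 1 clone, so what a clone owes to ASH1L and what it owes to its own history cannot be told apart.

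Protocadherins are single-pass membrane proteins with a row of extracellular cadherin repeats, and are best known from the nervous system, where they give neurons an identity at the cell surface. The clustered genes sit in a long array on chromosome 5q31. Each variable exon there has its own promoter and is joined, in the alpha and gamma clusters, to a shared set of constant exons, while beta genes have a single coding exon. Promoter choice at the locus is known to depend on the insulator protein CTCF, cohesin and DNA methylation. The non-clustered delta protocadherins are separate genes with their own cytoplasmic tails, several of them expressed in epithelia.

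ASH1L itself was at 2.69, 2.54, 2.42 and 3.74 log2 RPKM in KO1 to KO4, against 3.34, 3.30 and 3.22 log2 RPKM in WT. RPKM are reads per kilobase of exon, scaled to library size, so levels can be compared between genes, less surely where rows share exons. The ASH1L transcript thus remained in all clones, and stops of this kind need not remove it, so its level does not check the genotype. Read numbers recovered from the deposited values put the effective library sizes at 44.0 to 70.4 M reads. Both extremes were clones, KO3 the smallest and KO4 the largest. An effective size is the divisor behind the RPKM, not a count of the reads sequenced. The keratins KRT8, KRT18 and KRT19, markers of epithelial cells, lay between 5.64 and 7.79 log2 RPKM in all 7 libraries. Of 7 thyroid markers looked up, PAX8 alone had a row, and it stayed below 0 in all 7 libraries. Of 10 neuron markers 3 had rows, of 4 glial 0, of 6 leukocyte 2, of 3 endothelial 1 and of 5 fibroblast markers 2. The 3 neuron markers summed to between 6.22 and 14.7 RPKM in the clones, against between 17.9 and 20.3 RPKM in WT. STMN2 was below WT in all 4 clones (-0.98 to -4.16 log2 units). SYT1 lay within WT (2.81 to 3.44 log2 RPKM) in KO4 (3.42) and below it in the other clones. TUBB3 was above WT (-0.40 to 0.06 log2 RPKM) in KO3 (0.14), within it in KO4 (-0.17) and below it in KO1 and KO2. CD3D, a T-cell receptor component, was at -7.75, -0.96, -2.51 and -0.47 log2 RPKM in KO1 to KO4, against 3.05, 3.29 and 3.39 log2 RPKM in WT. The other leukocyte marker, CD14, was at -0.72, -0.17, -1.72 and 1.18, against -0.32, -0.27 and 0.49 in WT. The endothelial marker, PECAM1, was at -4.03, -0.47, -4.31 and -0.52, against -1.62, -1.65 and -1.86 in WT. The 2 fibroblast markers, COL1A1 and LUM, summed to between 20.4 and 65.0 RPKM in the clones, highest in KO3, against between 41.1 and 45.7 RPKM in WT. Their part in the protocadherin values was not tested. In bulk RNA, fewer cells with a transcript and less of it per cell cannot be told apart.

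The 12 protocadherins differed more from clone to clone than between WT replicates, as rows did in general. The range over the 4 clones was a median of 3.28 log2 units over the 12 rows, against 0.734 log2 units over all 13142 rows. It exceeded 2 log2 units in 9 of the 12, a span that 12.7% of all rows reached. The 12 rows had a median SD of 1.51 log2 units over the clones and of 0.156 log2 units over the WT replicates, where all rows had 0.328 and 0.111 log2 units. In WT the order of levels was the same in all 3 replicates for the top of the family, PCDH7 first, PCDH1 next and PCDHGC3 after them. No clone kept that order. PCDHGC3, PCDH1 and PCDHGA10 led in KO1, PCDH1, PCDH7 and PCDHGB5 in KO2, PCDH7, PCDHGC3 and PCDHB2 in KO3, and PCDH1, PCDHGC3 and PCDHGB5 in KO4.

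**Figure D1:**
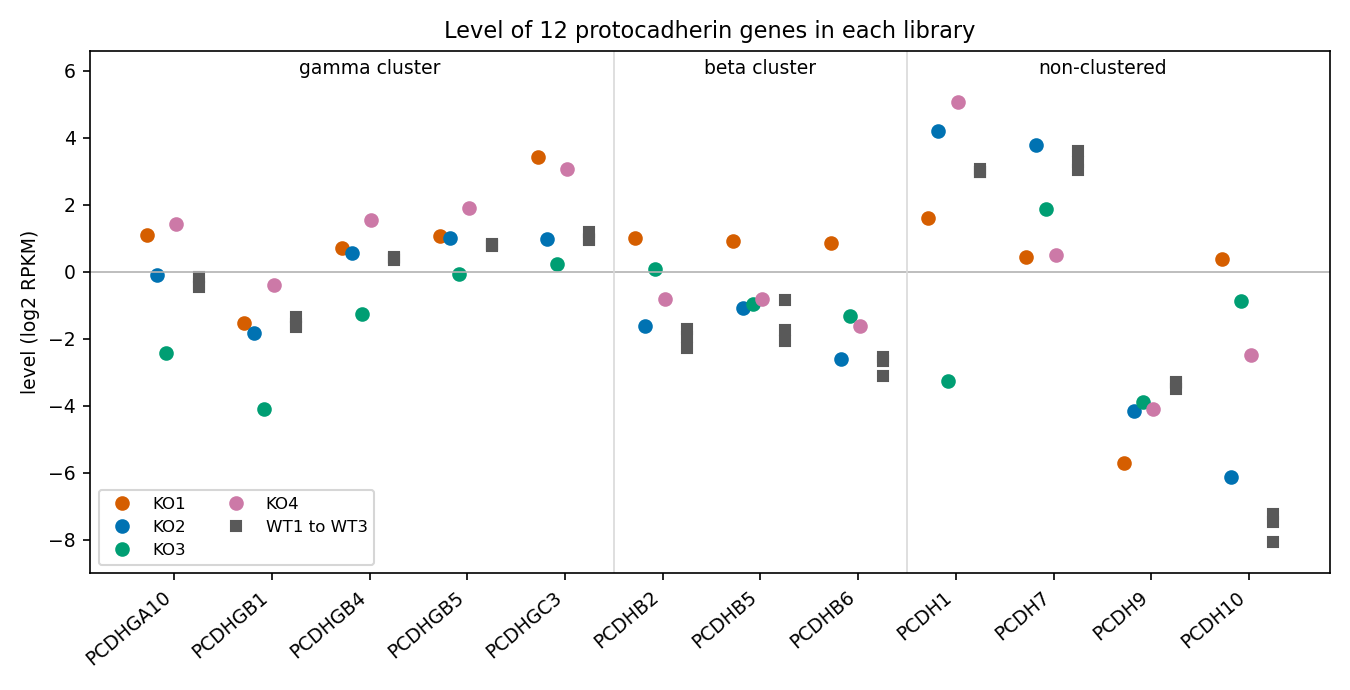
Level of the 12 protocadherin genes in log2 RPKM (vertical axis), with 1 coloured circle per knockout clone to the left of the grey squares of the 3 WT replicates. The clones spread over more than 2 log2 units in 9 of the 12 genes, while the WT squares lie close together except for PCDHB5 and PCDH10.

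Of the 12 rows, 5 passed the filter on low values (above 0 log2 RPKM in at least 3 libraries) and entered the limma fits: PCDH1, PCDH7, PCDHGB4, PCDHGB5 and PCDHGC3. The other 7 were tested in a limma fit of all 13142 rows. With the 4 clones as 1 group against the 3 WT replicates, 0 of the 5 members passed adjusted p 0.05, where 0.412% of the 11154 genes tested passed it, and the fit of all rows also passed 0 of the 12 (background 0.426%). At an unadjusted p under 0.05, 0 of the 5 and 1753 of the 11154 genes (15.7%) passed. In the fit of all rows 2 of the 12 did, PCDH10 and PCDHB2, near the share of all rows (2054 of 13142, 15.6%). Differences among the 4 clones, by limma's moderated F-test with the spread taken from the WT replicates, passed adjusted p 0.05 for all 5 of the members past the filter (background 53.5%). The fit of all rows passed 11 of the 12 members (background 54.1%), all but PCDHB5 (adjusted p = 0.0556). Every p-value for a single clone rests on the spread of 3 WT replicates and assumes that a clone varies as they do.

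All 4 clones lay on the same side of all 3 WT replicates for 3 members, where 19% of all rows did so. PCDH10 and PCDHB2 were above (9.47% of all rows) and PCDH9 below (9.55%). The other 9 overlapped between the groups. By clone, KO2 had the fewest calls, with only PCDH1 called, higher, of the 5 past the filter (background 33.5%). In KO1 3 of the 5 were called (background 44.1%), PCDHGC3 higher and PCDH1 and PCDH7 lower. KO3 had all 5 lower, where 19.9% of genes were called lower. KO4 had 4 of the 5 higher, where 10.4% of genes were called higher, and PCDH7 lower, with 24.8% called in either direction. In KO3 34.1% were called in either direction. Over all 12 members, the fit of all rows called 9 in KO1 (background 44.4%), 1 in KO2 (34.6%), 10 in KO3 (33.9%) and 10 in KO4 (26.7%). A limma-voom fit on the recovered reads called 9 in KO1 (background 44.9%), 2 in KO2 (37.6%), 10 in KO3 (33.3%), 10 in KO4 (30.4%) and all 12 among the clones (55.5%). It called 0 for the clones as 1 group (background 0.228%).

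**Figure D2:**
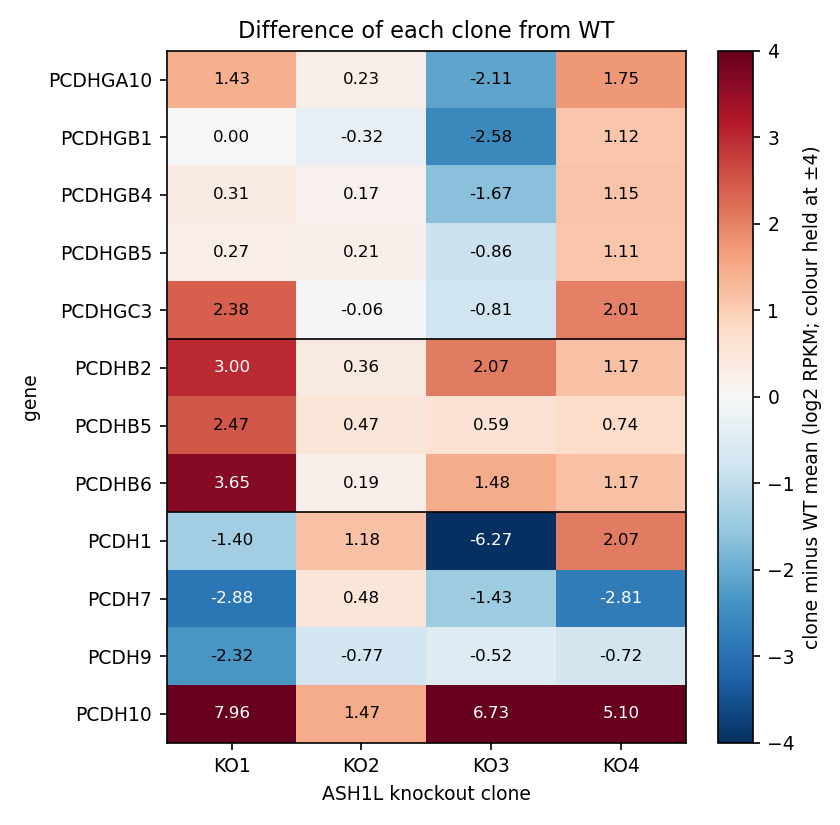
Difference of each ASH1L knockout clone from the WT mean in log2 RPKM for the 12 protocadherin genes (rows), with the value printed in each cell, red for higher and blue for lower in the clone, and colour held at 4 log2 units. The gamma rows read blue throughout KO3 and red throughout KO4, the beta rows are red in all clones and darkest in KO1, and PCDH1 changes sign from clone to clone.

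All 5 gamma rows were lower than WT in KO3 and higher in KO4, while in KO1 PCDHGC3 and PCDHGA10 alone were called, both higher. The rows all start on the plus strand of chr5 and all end at chr5:141512979 in the GENCODE annotation of GRCh38, since they share the constant exons. PCDHGB1 starts at 141350102, PCDHGB4 at 141387698, PCDHGB5 at 141397987, PCDHGA10 at 141412987 and PCDHGC3 at 141475947. PCDHGA10 is an A-type, PCDHGB1, PCDHGB4 and PCDHGB5 are B-type and PCDHGC3 is a C-type isoform. C-type variable exons are known to be less tied to the one-in-many promoter choice of the others. The 300 bases around each start (250 before and 50 after, RefSeq, GRCh38.p14, plus strand) are shown because promoter choice is what distinguishes the gamma transcripts; promoter use itself was not measured. Where RefSeq lists 2 windows for a gene, the upstream one is printed. Capitals mark GCCGCTGT, the longest stretch that all 5 windows hold.
PCDHGB1: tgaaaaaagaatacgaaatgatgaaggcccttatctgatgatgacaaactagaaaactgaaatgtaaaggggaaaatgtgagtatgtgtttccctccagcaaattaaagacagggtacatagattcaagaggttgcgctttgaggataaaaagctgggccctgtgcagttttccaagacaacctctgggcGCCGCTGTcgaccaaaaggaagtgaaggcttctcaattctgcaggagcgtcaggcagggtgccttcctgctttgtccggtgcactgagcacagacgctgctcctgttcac
PCDHGB4: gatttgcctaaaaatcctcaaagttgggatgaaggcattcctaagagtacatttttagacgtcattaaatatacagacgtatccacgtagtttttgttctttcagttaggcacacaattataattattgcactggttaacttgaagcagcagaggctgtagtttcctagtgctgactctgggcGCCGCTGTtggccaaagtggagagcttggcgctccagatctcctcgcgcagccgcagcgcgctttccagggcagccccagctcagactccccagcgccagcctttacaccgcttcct
PCDHGB5: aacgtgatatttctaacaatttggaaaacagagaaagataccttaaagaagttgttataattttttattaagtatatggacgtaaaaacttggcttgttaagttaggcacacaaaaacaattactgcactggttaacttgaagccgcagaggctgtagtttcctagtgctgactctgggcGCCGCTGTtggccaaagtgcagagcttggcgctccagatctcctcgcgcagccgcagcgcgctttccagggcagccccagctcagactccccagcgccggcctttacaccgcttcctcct
PCDHGA10: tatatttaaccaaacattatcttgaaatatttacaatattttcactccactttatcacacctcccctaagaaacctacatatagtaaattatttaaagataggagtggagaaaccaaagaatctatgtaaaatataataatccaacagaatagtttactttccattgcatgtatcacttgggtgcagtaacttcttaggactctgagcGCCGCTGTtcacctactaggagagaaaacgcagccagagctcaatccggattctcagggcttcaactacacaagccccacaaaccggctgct
PCDHGC3: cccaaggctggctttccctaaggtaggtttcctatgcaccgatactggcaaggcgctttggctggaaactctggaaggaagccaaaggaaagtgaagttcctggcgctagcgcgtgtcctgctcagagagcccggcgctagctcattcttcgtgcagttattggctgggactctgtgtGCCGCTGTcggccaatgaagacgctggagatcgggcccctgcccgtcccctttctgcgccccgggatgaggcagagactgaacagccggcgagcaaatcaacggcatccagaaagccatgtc
The windows are chr5:141349849-141350148, chr5:141387448-141387747, chr5:141397697-141397996, chr5:141412737-141413036 and chr5:141475716-141476015 in the order printed. They are placed around RefSeq starts, which for some genes differ from the GENCODE starts above. The stretch begins 60, 67, 70, 42 and 72 bases before the RefSeq start in that order, always on the plus strand. It contains CGCT, the core of the conserved element known from clustered protocadherin promoters. Searched on both strands, it occurs in the windows of 11 of 20 gamma genes, of 0 of 14 beta and 0 of 13 alpha genes, and in 1.63% of all 35116 RefSeq windows. The 11 include the 5 genes it was taken from. The core alone is in 70% of all windows. PCDHGB4 and PCDHGB5 are identical over 54 bases that run through the marked stretch and over 78 bases downstream of it, while the longest stretch shared by PCDHGC3 and PCDHGB4 is 8 bases.

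PCDHGC3, known from mouse work to bind AXIN1, a scaffold of the Wnt pathway, had the highest RPKM of the gamma genes in all libraries but KO2. That rank depends on how reads on shared exons were counted, which is taken up below. It was at 3.43, 0.99, 0.24 and 3.06 log2 RPKM in KO1 to KO4 (2878, 681, 283 and 3182 reads), against 0.99, 0.96 and 1.20 log2 RPKM in WT (609, 666 and 745 reads). KO1 and KO4 stood above every WT replicate, KO2 lay among them and KO3 below. The differences from WT were 2.38, -0.06, -0.81 and 2.01 log2 units (SE 0.15 each). KO1 (limma adjusted p = 5.67e-05), KO3 (0.0095) and KO4 (0.000373) passed, and KO2 did not (0.769). With the median difference of neighbouring genes within 5 Mb taken off, KO3 no longer passed (-0.43 log2 units, adjusted p = 0.088).

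PCDHGB5 was at 1.07, 1.01, -0.06 and 1.91 log2 RPKM in KO1 to KO4 (499, 619, 204 and 1282 reads), against 0.80, 0.78 and 0.82 log2 RPKM in WT (476, 526 and 509 reads). PCDHGB4 was at 0.71, 0.57, -1.27 and 1.55 log2 RPKM in KO1 to KO4 (555, 647, 126 and 1424 reads), against 0.43, 0.40 and 0.36 log2 RPKM in WT (525, 575 and 530 reads). For both B-type genes KO4 was the highest and KO3 the lowest library. In KO3 they were lower by limma, with differences of -0.86 ± 0.14 for PCDHGB5 (adjusted p = 0.0062) and -1.67 ± 0.16 log2 units (SE) for PCDHGB4 (0.000905). In KO4 they were higher, by 1.11 ± 0.14 (adjusted p = 0.00297) and 1.15 ± 0.16 log2 units (0.00418). KO1 differed from WT by 0.27 and 0.31 log2 units and KO2 by 0.21 and 0.17, and neither passed (adjusted p = 0.165, 0.156, 0.282 and 0.45).

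PCDHGA10 was at 1.11, -0.09, -2.43 and 1.42 log2 RPKM in KO1 to KO4 (702, 394, 54 and 1253 reads), against -0.44, -0.37 and -0.16 log2 RPKM in WT (275, 324 and 355 reads). In the fit of all rows it was higher in KO1 (1.43 ± 0.20 log2 units, adjusted p = 0.00173) and KO4 (1.75 ± 0.20, 0.00166) and lower in KO3 (-2.11 ± 0.20, 0.000694). KO1 and KO4 were thus the high libraries, as for PCDHGC3, and KO3 the low one. PCDHGB1 was at -1.53, -1.84, -4.11 and -0.40 log2 RPKM in KO1 to KO4 (81, 84, 12 and 254 reads), against -1.34, -1.57 and -1.66 log2 RPKM in WT (106, 101 and 90 reads). KO3 was lower by the same fit (-2.58 ± 0.25 log2 units, adjusted p = 0.000843) and KO4 higher (1.12 ± 0.25, 0.0212). KO1 lay within the WT range, at a difference under 0.01 log2 units.

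The 5 gamma rows together came to 17.1, 6.70, 2.80 and 18.4 RPKM in KO1 to KO4, against 6.29 ± 0.24 RPKM in WT (SD, n = 3). That is 2.71-fold, 1.07-fold, 0.445-fold and 2.93-fold of the WT mean. KO1 and KO4 reached similar sums with different shares of the genes. PCDHGC3 made up 63.4%, 29.6%, 42.3% and 45.1% of the sum in KO1 to KO4, against 32.0%, 31.9% and 35.1% in WT. PCDHGB4 made up 9.62%, 22.1%, 14.8% and 15.9% in the clones, against 21.7%, 21.7% and 19.6% in WT. The log2 ratio of PCDHGC3 over PCDHGB4 was 2.72, 0.42, 1.51 and 1.51 in KO1 to KO4, against 0.56, 0.56 and 0.84 in WT. KO1, KO3 and KO4 lay above the WT replicates and KO2 just below them. KO1 and KO4 were above WT in the ratio of PCDHGC3 to each of the other 4 gamma genes. The place of KO3 and KO2 depended on the partner, since over PCDHGB5 KO3 lay at 0.31, within WT at 0.19, 0.18 and 0.39, and over PCDHGB1 KO2 lay at 2.83, within WT at 2.33, 2.53 and 2.86. With 1 library a clone these shares and ratios have no test of their own. The gamma rows overlap in annotation, since 32.8% to 64.4% of their exon bases are shared with other genes. RPKM divides by all exon bases of a row, and the shared part is 40.2% for PCDHGC3 and 64.4% for PCDHGB4. If reads on shared bases were left out, RPKM would be lowered unequally between rows. The order and shares of the gamma genes within a library could then change. How reads on shared exons were counted, and whether by strand, is stated in none of the sources, so the split between gamma rows is uncertain. For the same reason the 5 gamma rows may not be separate genes in the counts of called members.

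**Figure D3:**
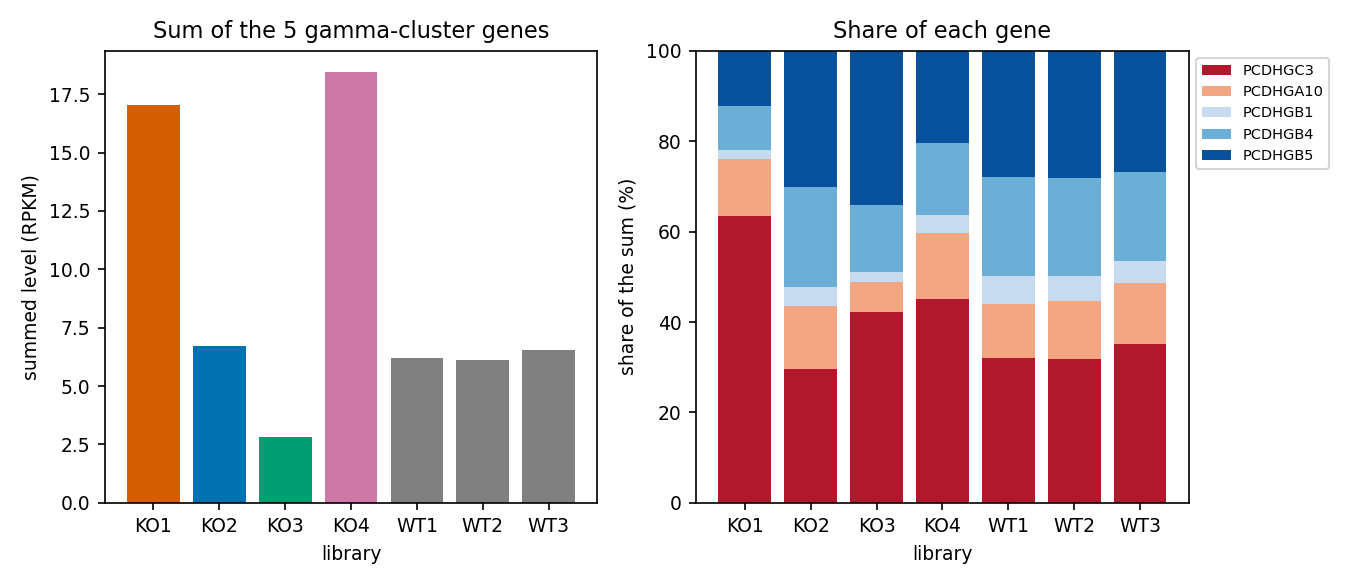
Left, summed level of the 5 gamma-cluster genes in RPKM for each library, the 4 knockout clones and then the 3 WT replicates; right, the share of each gene in that sum in percent. KO1 and KO4 stand at 17.1 and 18.4 RPKM and KO3 at 2.80 RPKM, and PCDHGC3 (dark red) takes 63.4% of the KO1 sum.

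The 3 beta rows were low in WT and highest in KO1, and in KO3, where the gamma rows were low, PCDHB2 and PCDHB6 were higher than in WT. PCDHB2 lies at chr5:141094578-141098703, PCDHB5 at chr5:141135218-141138625 and PCDHB6 at chr5:141150022-141153287, all on the plus strand and upstream of the gamma array. The RefSeq windows of PCDHB2 (chr5:141094365-141094664) and PCDHB5 (chr5:141134956-141135255) are printed for comparison with the gamma promoters. Capitals mark GGTGGCGCTGCAG, the longest stretch that both windows hold, which contains the same CGCT core.
PCDHB2: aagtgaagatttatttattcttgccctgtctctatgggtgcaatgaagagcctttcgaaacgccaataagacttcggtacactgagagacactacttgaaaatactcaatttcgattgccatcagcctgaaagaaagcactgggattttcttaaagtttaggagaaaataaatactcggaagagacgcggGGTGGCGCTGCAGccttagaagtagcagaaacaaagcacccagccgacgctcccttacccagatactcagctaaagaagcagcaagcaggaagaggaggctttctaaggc
PCDHB5: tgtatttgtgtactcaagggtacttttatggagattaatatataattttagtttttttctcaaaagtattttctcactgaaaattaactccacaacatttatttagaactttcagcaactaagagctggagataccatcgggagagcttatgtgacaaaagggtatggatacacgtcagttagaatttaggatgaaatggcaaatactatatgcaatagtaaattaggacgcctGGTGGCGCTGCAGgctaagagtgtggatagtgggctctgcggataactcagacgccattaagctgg
The RefSeq starts of both genes differ from the GENCODE positions above. The marked stretch begins 60 bases before the RefSeq start of PCDHB2 and 16 before that of PCDHB5, on the plus strand in both. Searched on both strands, it is in the windows of 10 of 14 beta genes, of 0 of 20 gamma and 0 of 13 alpha genes, and in 0.0427% of all windows. The 10 include PCDHB2 and PCDHB5, from which it was taken. Neither stretch occurs in the windows of PCDH1, PCDH7 or PCDH9.

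PCDHB2 was at 1.02, -1.61, 0.10 and -0.80 log2 RPKM in KO1 to KO4 (410, 85, 194 and 166 reads), against -1.95, -1.71 and -2.26 log2 RPKM in WT (60, 79 and 51 reads). All 4 clones lay above WT, KO2 only just. In the fit of all rows KO1 was higher by 3.00 ± 0.27 log2 units (SE, adjusted p = 0.00026), KO3 by 2.07 (0.00247) and KO4 by 1.17 (0.0223), and KO2 was not called (0.36 log2 units, 0.33). PCDHB6 was at 0.87, -2.59, -1.31 and -1.61 log2 RPKM in KO1 to KO4 (292, 34, 58 and 75 reads), against -3.12, -2.67 and -2.55 log2 RPKM in WT (21, 32 and 33 reads). KO2 lay within the WT range and the other clones above it. The differences were 3.65, 0.19, 1.48 and 1.17 log2 units (SE 0.30 each), with KO1 (adjusted p = 0.000178), KO3 (0.0124) and KO4 (0.0327) called. PCDHB5 was at 0.92, -1.08, -0.96 and -0.81 log2 RPKM in KO1 to KO4 (316, 102, 77 and 137 reads), against -1.75, -2.07 and -0.83 log2 RPKM in WT (57, 51 and 114 reads). KO1 alone stood clear of WT (2.47 ± 0.46 log2 units, SE, adjusted p = 0.00591). KO2 and KO3 lay within the WT range and KO4 just above it.

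The 3 beta rows summed to 5.75, 0.968, 1.99 and 1.47 RPKM in KO1 to KO4, against 0.771 ± 0.148 RPKM in WT (SD, n = 3), which is 7.45-fold, 1.25-fold, 2.58-fold and 1.91-fold of the WT mean. In KO1 their shares of that sum were nearly even, at 35.3% for PCDHB2, 32.9% for PCDHB5 and 31.8% for PCDHB6. In WT PCDHB6 took 17.2%, 22.4% and 18.1% of it. KO3 thus held the beta sum at 2.58-fold and the gamma sum at 0.445-fold of WT, while KO1 and KO4 held both above it. Of their 50-base windows, 78.9% to 87.6% occur in no other gene, so the beta rows are less exposed to shared sequence than the gamma rows.

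PCDH1 spanned the widest range over the clones of the 12 members, 8.34 log2 units. This delta-1 protocadherin of epithelial cell contacts, known as an entry receptor of New World hantaviruses, lies at chr5:141853111-141879246 on the minus strand, downstream of the gamma array. It was at 1.61, 4.20, -3.26 and 5.08 log2 RPKM in KO1 to KO4 (884, 6838, 27 and 14096 reads), against 3.07, 2.99 and 2.99 log2 RPKM in WT (2786, 2949 and 2795 reads). No clone lay within the WT range, with KO2 and KO4 above it and KO1 and KO3 below. The differences were -1.40, 1.18, -6.27 and 2.07 log2 units (SE 0.11 each), and each passed by limma (adjusted p = 0.000177, 0.00109, 3.71e-06 and 0.000124). In KO3 27 reads remained, a level 0.013-fold that of WT. The clones as 1 group differed from WT by -1.10 ± 1.80 log2 units (SE, adjusted p = 0.795), and without KO3 the sign turned (0.62 ± 0.84). The 4 clones differed among themselves (F-test adjusted p = 1.99e-06).

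PCDH7, a delta-1 protocadherin that binds protein phosphatase PP1-alpha, lies at chr4:30720415-31146805 on the plus strand and was the highest member in WT. It was at 0.43, 3.79, 1.88 and 0.50 log2 RPKM in KO1 to KO4 (809, 10709, 1983 and 1223 reads), against 3.61, 3.29 and 3.03 log2 RPKM in WT (8462, 7554 and 5985 reads). KO1, KO3 and KO4 lay below all WT replicates and KO2 above them. The 3 low clones were called, with differences of -2.88, -1.43 and -2.81 log2 units (SE 0.22 each, adjusted p = 0.000135, 0.00472 and 0.000419). KO2 differed by 0.48 log2 units (adjusted p = 0.136), and passed only without WT replicate 1 (0.63 log2 units, adjusted p = 0.0112). The clones as 1 group differed from WT by -1.66 ± 0.77 log2 units (SE, adjusted p = 0.347). Without KO2 that difference was -2.38 ± 0.40 and passed (adjusted p = 0.0444).

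Most epithelial markers were also low in KO1, KO3 and KO4. CDH1, encoding E-cadherin, was at -5.86, 1.96, -2.20 and -2.83 log2 RPKM in KO1 to KO4, against 0.75, 0.78 and 0.47 log2 RPKM in WT. The 5 epithelial markers summed to 233.5, 575.9, 251.6 and 407.1 RPKM in KO1 to KO4, against 583.2, 547.9 and 487.5 RPKM in WT. In KO1 all 5 lay below every WT replicate, in KO3 all but EPCAM and in KO4 all but KRT19. EPCAM in KO3 (3.19 log2 RPKM) was above WT (2.85 to 3.04), and KRT19 in KO4 (7.32) was within WT (7.21 to 7.61). In KO2 KRT18 (7.37) was below WT and the other markers were above it. EPCAM and the keratins stayed above 0 log2 RPKM in all 7 libraries. Their part in the PCDH7 and PCDH1 values was not tested.

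PCDH10, a delta-2 protocadherin known from mouse work to bind the WAVE actin-regulating complex, was nearly silent in WT. It lies at chr4:133149315-133208606 on the plus strand. It was at 0.37, -6.11, -0.86 and -2.49 log2 RPKM in KO1 to KO4 (643, 9, 246 and 127 reads), against -7.47, -7.23 and -8.07 log2 RPKM in WT (3, 4 and 2 reads). All 4 clones lay above all WT replicates, KO2 by a few reads. In the fit of all rows the gain was called in KO1 (adjusted p = 3.94e-05), KO3 (0.000244) and KO4 (0.000796), and not in KO2 (0.0531). As 1 group the clones were not called (adjusted p = 0.171). With 2 to 4 reads a library in WT, the fitted differences of 7.96, 1.47, 6.73 and 5.10 log2 units depend on the small count added before the log.

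PCDH9, a delta-1 protocadherin at chr13:66302834-67230445 on the minus strand, was the only member below WT in all 4 clones. It was at -5.70, -4.15, -3.90 and -4.10 log2 RPKM in KO1 to KO4 (29, 110, 91 and 127 reads), against -3.33, -3.30 and -3.50 log2 RPKM in WT (173, 198 and 163 reads). KO1 stood apart from the other 3 clones. It alone was called in the fit of all rows (-2.32 ± 0.35 log2 units, SE, adjusted p = 0.00265). The others differed by -0.77, -0.52 and -0.72 log2 units (adjusted p = 0.135, 0.284 and 0.175). With read-based weights (voom), KO2 was called as well (adjusted p = 0.0387).

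Nearby genes on 5q31 were set beside the 9 protocadherins there. Of 33 listed neighbours 28 had rows and 25 were tested. Their median difference from WT was 0.14, -0.12, -0.40 and 0.09 log2 units in KO1 to KO4, against 0.00, -0.01, -0.02 and -0.01 log2 units over all tested genes. KO3 had the largest median shift. The 24 tested neighbours with a position lay between -1.08 and 1.13 log2 units from WT in KO1, between -1.58 and 0.22 in KO2, between -1.07 and 0.71 in KO3 and between -0.88 and 0.71 in KO4. The 3 neighbours with a position that did not pass the filter were ANKHD1, CD14 and FGF1. FGF1, a fibroblast growth factor, differed by 2.86, 1.62, 2.92 and 3.69 log2 units in KO1 to KO4. In KO2 and KO4 that was more than any protocadherin of 5q31. CD14 differed by -1.69 in KO3. TAF7, which lies between the beta and gamma arrays, differed from WT by 0.19, 0.08, -0.39 and 0.22 log2 units. DIAPH1, just past the constant exons and encoding a formin, differed by 0.34, -0.42, -0.40 and 0.14 log2 units. In KO3 the gamma differences were -0.81 to -2.58 and the PCDH1 difference -6.27, beside -0.39 and -0.40 in these flanking genes. Of the 25 tested neighbours, 15 were called lower and 1 higher in KO3, where 19.9% and 14.2% of all genes were. The lowest tested neighbour with a position, CYSTM1 (-1.07), lay below PCDHGC3 (-0.81) and PCDHGB5 (-0.86) in KO3. With the neighbourhood median taken off, the KO3 differences were -5.89 for PCDH1 (limma adjusted p = 0.000105), -1.29 for PCDHGB4 (0.00489), -0.49 for PCDHGB5 (0.0408) and -0.43 log2 units for PCDHGC3 (0.088), so PCDHGC3 alone lost its call. PCDH7 was left out of that fit, with 3 neighbours tested within 5 Mb. The part of the neighbourhood shift in the protocadherin values was otherwise not tested.

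**Figure D4:**
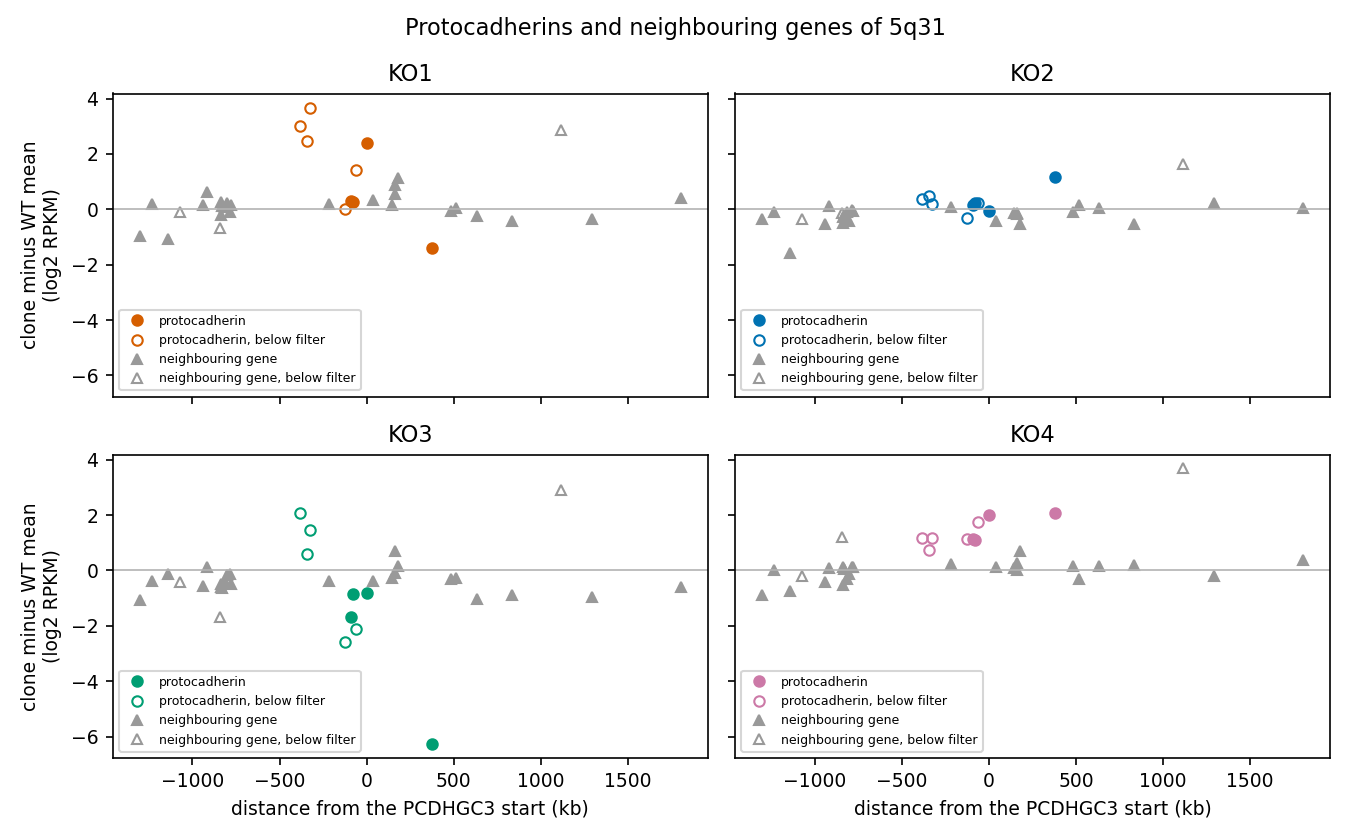
Difference of each clone from the WT mean in log2 RPKM against the distance from the PCDHGC3 start in kb, 1 panel a clone, with coloured circles for the 9 protocadherins of 5q31 and grey triangles for 27 neighbouring genes, open where a gene did not pass the filter. Most triangles lie near 0, a little below it in KO3, with FGF1 the highest triangle in each panel (3.69 in KO4), and the circles reach 3.65 in KO1 and -6.27 in KO3.

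Listed genes that act on or with protocadherins were tested with the 4 clones as 1 group against WT, and 0 passed adjusted p 0.05 by limma, with 5 of 29 regulators, 1 of 23 partners, 2 of 10 other cadherins and 3 of 25 neighbours at an unadjusted p under 0.05, which 15.7% of all genes tested reached. Among 30 regulators of the clustered locus, 29 were tested, with a median difference of 0.08 log2 units, against -0.02 over all genes tested. CBX1, a heterochromatin protein, was at 5.52, 5.40, 5.39 and 5.49 log2 RPKM in KO1 to KO4, against 5.01, 5.01 and 4.79 log2 RPKM in WT. It was above WT in all 4 clones and passed in each alone (adjusted p = 0.00955, 0.0281, 0.0312 and 0.0205), but not as 1 group (0.51 ± 0.10 log2 units, SE, adjusted p = 0.0943). The cohesin subunit STAG2 differed by -0.30 log2 units, the histone methyltransferase EHMT1 by 0.41 and the heterochromatin protein CBX5 by 0.54 (adjusted p = 0.242, 0.243 and 0.289). By clone, 10 of the 29 regulators were higher and 4 lower in KO1, 6 and 2 in KO2, 5 and 5 in KO3, and 2 and 3 in KO4. Over all genes tested, 19.2% were higher and 24.9% lower in KO1, 15.5% and 18.0% in KO2, 14.2% and 19.9% in KO3, and 10.4% and 14.4% in KO4.

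Partners and proteases of protocadherins had a median difference of -0.01 log2 units over 23 tested of 28. The members nearest to the threshold were BRK1, a WAVE complex subunit (-0.36), PPP1CA, the PP1-alpha catalytic subunit (-0.24), the kinase SRC (-0.70) and AXIN1 (-0.25), with adjusted p of 0.276, 0.401, 0.425 and 0.431. Of 27 other cadherins 15 had rows and 10 were tested, with a median difference of 0.16 log2 units. CELSR3, a seven-pass cadherin of planar polarity, was at 1.66, 1.89, 1.46 and 2.03 log2 RPKM in KO1 to KO4, against 0.63, 0.76 and 0.88 log2 RPKM in WT. It was above WT in all 4 clones, but missed the threshold as 1 group (1.00 ± 0.18 log2 units, SE, adjusted p = 0.0747). CDH2, encoding N-cadherin, differed by -0.64, FAT4 by 0.87 and CELSR1 by 0.35 log2 units (adjusted p = 0.224, 0.356 and 0.375). Among the neighbours on 5q31, CYSTM1 differed by -0.82, TMCO6 by -0.46, HBEGF, a ligand of the EGF receptor, by -0.88 and SRA1 by -0.34 log2 units (adjusted p = 0.115, 0.206, 0.269 and 0.419).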

How the data were processed

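RNA-seq of 7 libraries was analysed from 1 table of log2 RPKM values for 13142 genes, deposited by the authors. The submitters' processing notes name STAR 2.5.3a, build hg38, Trim Galore 0.4.1, edgeR and HTSeq 0.11.2. Annotation, strand setting, prior count and filter are not stated in them. Groups follow the sample titles. Gene positions and lengths came from GENCODE, with 93.6% of rows matched by symbol. With a prior of 0.25 reads assumed and checked on 7 rows at the lowest value, whole read numbers were recovered in all 7 libraries for 92.7% of 12306 placed rows (within 0.02 reads) and for the 12 protocadherins.

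limma 3.58.1 in R 4.3.3 (variance trend, Benjamini-Hochberg adjustment over all genes tested) compared the clones as 1 group with WT, each clone with WT in a fit of 5 groups, and the clones among themselves. SEs come from these fits. p-values measure only the spread between these libraries. Genes above 0 log2 RPKM in at least 3 libraries were tested; a fit of all rows covered the rest. Alternatives were other filters, 0.1 RPKM added, other scaling and variance models, centring on neighbours, each library left out, a replicate block and voom on the recovered reads (at least 10 in at least 3 libraries). That fit was chosen after seeing the data. Promoter stretches were searched in RefSeq windows, which exist for 10 of the 12 members.

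Every member is named, and from each list the 4 genes with the smallest unadjusted p for the clones as 1 group. TAF7, DIAPH1, FGF1, CD14, ANKHD1, TUBB3 and PECAM1 were named after their values were seen. The members and lists were chosen with earlier results of these data known. The fits were tested on simulated data in which clones varied only as WT replicates do. Over the tested rows the median SD was 0.300 log2 units over the clones and 0.101 over WT. That test thus does not cover spread between clones.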

Additional observations from a re-analysis of the deposited data

Results flagged for a closer look

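Of 14 sets of 4 clones examined (12 genes and both cluster sums), 2 had a clone far from the rest. KO1 was the lowest clone for PCDH9, where its gap to the next clone was 0.862 of the range, and the highest for PCDHB5, where the gap was 0.865 of the range. Both shares exceed Dixon's critical value for 4 samples, and chance gives such a gap in about 1 of 20 sets. KO1 had 29 reads for PCDH9 and 316 for PCDHB5.

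The 4 clones differed among themselves in 11 of the 12 members by limma's F-test. Among those past the filter, the adjusted p was 1.99e-06 for PCDH1, 9.68e-05 for PCDHGC3, 0.000417 for PCDHGB4, 0.000445 for PCDH7 and 0.00124 for PCDHGB5. In the fit of all rows it was 0.000164 for PCDHGA10, 0.000783 for PCDHGB1, 0.000916 for PCDH10, 0.00217 for PCDHB6, 0.00366 for PCDHB2 and 0.0342 for PCDH9. Of all genes past the filter, 53.5% passed the same test.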

How the results depend on the processing

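Of 489 alternative values for single members, 471 kept direction and side of the threshold. Many of these could not change direction, so the count overstates how stable the values are. Leaving out another clone does not change a clone's difference from WT. Filter and variance settings leave every difference as it was and change only its SE and p-value. F values have no sign to turn. For the 7 members below the filter the 1 alternative was voom: no library was left out and no rescaling was run, including for calls near the threshold (PCDHGB1 and PCDHB6 in KO4, PCDH9 among clones). The 5 that crossed it were PCDH7 in the clones as 1 group without KO2, PCDH7 in KO2 without WT1, PCDHGC3 in KO3 after centring, and PCDH9 in KO2 and PCDHB5 among clones (adjusted p = 0.0187) with voom. Signs turned 13 times, all for values not called. These were PCDH1 as 1 group without KO3 (0.617) and PCDHGB4 as 1 group with 0.1 RPKM added (0.0211), quantile scaling (0.0941), equal medians (0.0235), centring (0.0475), voom (0.0871), without KO3 (0.545) and without WT1 (0.00791). They also include PCDHGB5 as 1 group without KO4 or with the replicate block (-0.126 both), PCDHGB1 in KO1 with voom (0.000716), and PCDHGC3 in KO2 with centring (0.0429) or without WT3 (0.012). With 1 library left out, the values as 1 group ran from -2.16 to 0.617 for PCDH1, -0.395 to 0.545 for PCDHGB4 and -0.126 to 0.531 for PCDHGB5, and for PCDHGC3 in KO2 from -0.108 to 0.012.

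Member calls in KO1, KO3, KO4 and among clones were 9, 10, 10 and 11 of 12 without a filter and 9, 10, 10 and 12 of 12 with voom, which called 2 in KO2. Only 3 members passed the stricter filter, and all 3 were called in KO3 (background 33.6%), KO4 (22.5%) and among clones (53.4%). Centring tested 4 members and called 3 of them in KO3 (background 22.2%). Leaving out 1 library called 0 to 1 of 5 members for the clones as 1 group (1 without KO2, background 2.12%). In KO2 it called 1 to 2 of 5 (2 without WT1, background 34%).

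Over all genes, the clones as 1 group had 46 calls, against 29 with the stricter filter, 114 with quantile scaling, 1 with centring, 26 with voom, and 0 to 236 with 1 library left out (236 without KO2, 87 without KO3, 1 without KO4, 0 without any 1 WT). Centring gave 3150 calls in KO1, 2345 in KO3, 1801 in KO4 and 3913 among clones. Leaving out 1 WT gave 3088 to 5833 calls in KO1, 1743 to 4867 in KO2, 1706 to 4906 in KO3 and 1153 to 3972 in KO4, each fewest without WT2, and 3604 to 7783 among clones. The causes were not tested. With equal medians the gamma sum was 17.8 RPKM in KO1 and 18.8 in KO4, and the beta sum 6.0 in KO1.

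The shared numbers do not pair the libraries (correlations of deviations 0.06, 0.066 and -0.012). A fit with the replicate block gave 0 calls over all genes and 0 members.

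Each clone is 1 library, so a clone's own spread is unknown. At 2 to 4 reads for PCDH10 in WT, counting error limits its WT level.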
